A study of Mus musculus with 8 samples.

Results

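The expression of the lecticans that were not targeted, of the link proteins and of the main hyaluronan genes was examined in the retina of mice lacking 4 matrix components. The genes were chosen by name: Acan, Vcan, Hapln1, Hapln2, Hapln3, Hapln4, Has2, Has3, Hyal1 and Cd44. Of these 10 genes, 7 were among the 18058 genes of the expression table, and Acan, Hapln2 and Has2 were not analysed here. Total RNA of the adult mouse retina was sequenced in 4 WT and 4 quadruple KO libraries, named A to D within each genotype. The WT mice were of the inbred strain 129S2/SvPasCrl, and the quadruple KO mice, bred from single KO lines, carried KO alleles of Bcan, Ncan, Tnc and Tnr. These are germline alleles present in every cell, so that an effect on the retina cannot be told apart from one that began elsewhere or earlier in development. Mice of both sexes were used in the study, and retinae were pooled before extraction. The sex and the number of animals behind each library are not given in the sources used here, so that p-values measure only the spread between these libraries, which may be technical.

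In the neural extracellular matrix, hyaluronan forms a long chain at the cell surface, to which chondroitin sulfate proteoglycans of the lectican family attach through their N-terminal end. The lecticans are aggrecan (Acan), versican (Vcan), brevican (Bcan) and neurocan (Ncan), and each is held on hyaluronan by a small link protein of the Hapln family. Tenascin-R, and in development tenascin-C, cross-link the other ends of the lecticans, and together these parts build the perineuronal nets that surround some neurons of the brain. The comparison of the genotypes addresses whether the remaining partners of such a net differ in level when 2 lecticans and 2 tenascins are missing.

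In the mouse genome each link protein gene lies beside a lectican gene, as drawn in the map of the 4 gene pairs. All positions are those of GRCm39, the build of the files, with the GENCODE annotation. Hapln1 (chr13:89686581-89759950, plus strand) and Vcan (chr13:89803431-89890814, minus strand) point towards each other and are 43.5 kb apart. Hapln3 (chr7:78764850-78780956, minus strand) and Acan (chr7:78702964-78764847, plus strand) also converge, with 2 bases between their ends. Hapln2 (chr3:87926800-87934890) and the targeted Bcan (chr3:87894835-87910177) lie on the minus strand, 16.6 kb apart. Hapln4 (chr8:70536106-70543533, plus strand) and the targeted Ncan (chr8:70538926-70573523, minus strand) converge and overlap by 4608 bases. The other genes have no lectican or link protein gene as a partner. Cd44 lies on chromosome 2 (chr2:102641486-102732010, minus strand), Hyal1 on chromosome 9 (chr9:107454126-107458909, plus strand) and Has3 on chromosome 8 (chr8:107596874-107611198, plus strand).

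**Figure D1:**
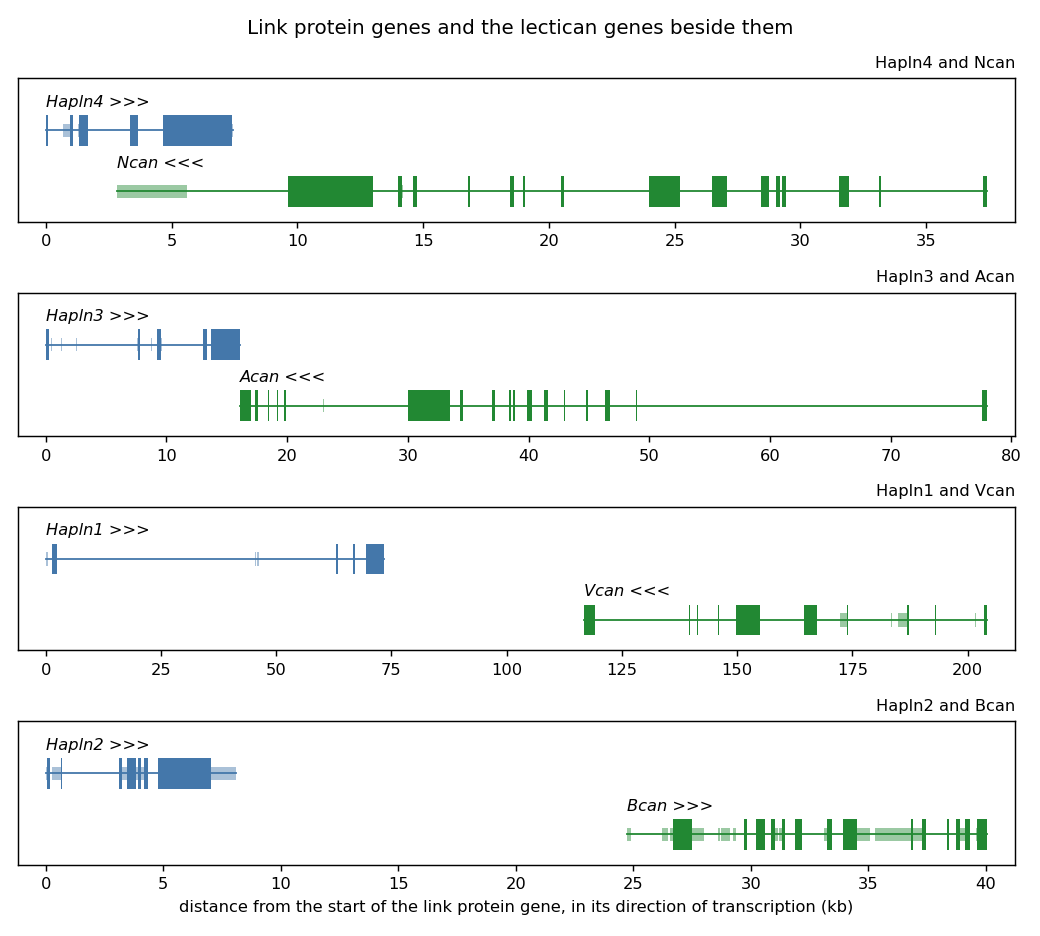
Map of the 4 pairs of a link protein gene (blue) and a lectican gene (green), to scale within each row, with the distance in kb from the start of the link protein gene. Tall boxes are exons of the canonical transcript, low pale boxes are exons of other transcripts, and arrowheads give the direction of transcription. Of the 4 pairs, only Hapln4 and Ncan overlap, and there only through exons of non-canonical Ncan transcripts.

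The overlap of Hapln4 with Ncan bears on how its reads were counted. Of the 10 annotated Ncan transcripts, 3 reach into Hapln4. Their exons cover 1255 of the 4008 exonic bases of Hapln4, or 31.3%, and 713 of the 1200 bases of its canonical coding sequence. The canonical Ncan transcript ends 2212 bases away from Hapln4 and shares no exonic base with it. The libraries were directional, but whether counting used the strand is not stated. Without strand, reads of the 2 genes in the shared stretch cannot be told apart. Of the 5 coding exons of the canonical Hapln4 transcript, 2 have their coding part wholly inside a Ncan exon of the opposite strand. The first of them lies at chr8:70539458-70539781. The first 120 bases of this exon (chr8:70539458-70539577, plus strand) are shown, because they are coding sequence of Hapln4 and, read on the minus strand, part of an annotated Ncan exon:

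Hapln4 coding exon: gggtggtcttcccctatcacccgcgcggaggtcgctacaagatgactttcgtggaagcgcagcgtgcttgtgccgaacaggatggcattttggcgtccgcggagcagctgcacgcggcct

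By contrast, the link proteins shared no stretch with each other that would be long enough to mix their reads. No run of 31 bases was common to any 2 of Hapln1, Hapln2, Hapln3 and Hapln4 over all their annotated transcripts. Between the canonical coding sequences the longest identical run was 17 bases, for Hapln1 with Hapln2 and for Hapln2 with Hapln4. Among the 3 measured link proteins it was 15 bases. The stretches around the longest run of each measured pair are shown to make this resemblance visible, with the identical bases in capitals and positions counted from the first base of the coding sequence.

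Hapln1, bases 355 to 393: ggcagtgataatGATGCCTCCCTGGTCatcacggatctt

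Hapln4, bases 364 to 402: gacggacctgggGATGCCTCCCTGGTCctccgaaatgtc

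Hapln1, bases 601 to 638: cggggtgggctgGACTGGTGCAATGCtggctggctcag

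Hapln3, bases 616 to 653: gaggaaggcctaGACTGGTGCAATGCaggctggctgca

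Hapln3, bases 1042 to 1077: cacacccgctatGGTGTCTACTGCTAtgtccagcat

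Hapln4, bases 1060 to 1097: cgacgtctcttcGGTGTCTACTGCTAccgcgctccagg

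In each pair the letters next to the capitals differ between the genes.

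The libraries were compared on normalized counts, which are estimated counts that the authors divided by a factor for the depth of each library. The depth was estimated at 23.6 to 40.5 M reads in WT and 38.9 to 52.4 M in the quadruple KO. Gnat1, encoding the transducin subunit of rods, marked the tissue as retina with a mean of 289641 normalized counts in WT. Of the targeted genes, Ncan had 688 ± 94.0 normalized counts (WT) and at most 0.853 in any quadruple KO library, and Bcan fell from 258 ± 54.7 to 15.0 ± 4.79. Tnr had 5856 ± 340 (WT) and 2509 ± 95.1 (quadruple KO), whereas Tnc had 1265 ± 330 (WT) and 1175 ± 104 (quadruple KO) normalized counts (SD, n = 4 each). For Tnc the RNA level, counted over the whole gene, therefore did not set the genotypes apart. The authors reported a loss of WT sequence within each targeted gene. In western blots of postnatal quadruple KO retina they did not detect the targeted proteins. WT B and WT C stood apart from the other 6 libraries along the first principal component, which held 50.9% of the variance. In these libraries the RNA of the signal recognition particle made up 19.3% and 14.8% of the counts, against at most 8.69% elsewhere. The fold change of each of the 7 genes is therefore also given for WT A and WT D alone, a comparison that was added once the values were known. Sums, levels per kilobase, marker lists and the other genes are given for all 4 WT libraries.

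None of the 7 genes passed the test between the genotypes, with a threshold of 0.05 on the adjusted p (limma with Benjamini-Hochberg adjustment over 17636 genes). Of all genes tested, 77 were called (0.437%), of which 31 were lower (0.176%) and 46 higher (0.261%) in the quadruple KO. At an unadjusted limma p under 0.05, 2 of the 7 genes were lower, namely Hapln3 and Hapln4, and 1 was higher, Cd44. Among all genes tested, 7.28% were lower and 9.29% higher at this level. The libraries of the genotypes did not overlap for 2 of the 7 genes, with Hapln4 lower and Cd44 higher, and for 3.58% (lower) and 6.16% (higher) of all genes tested. The median log2 fold change of the 7 genes was 0.16, beside -0.00 over all genes tested.

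**Figure D2:**
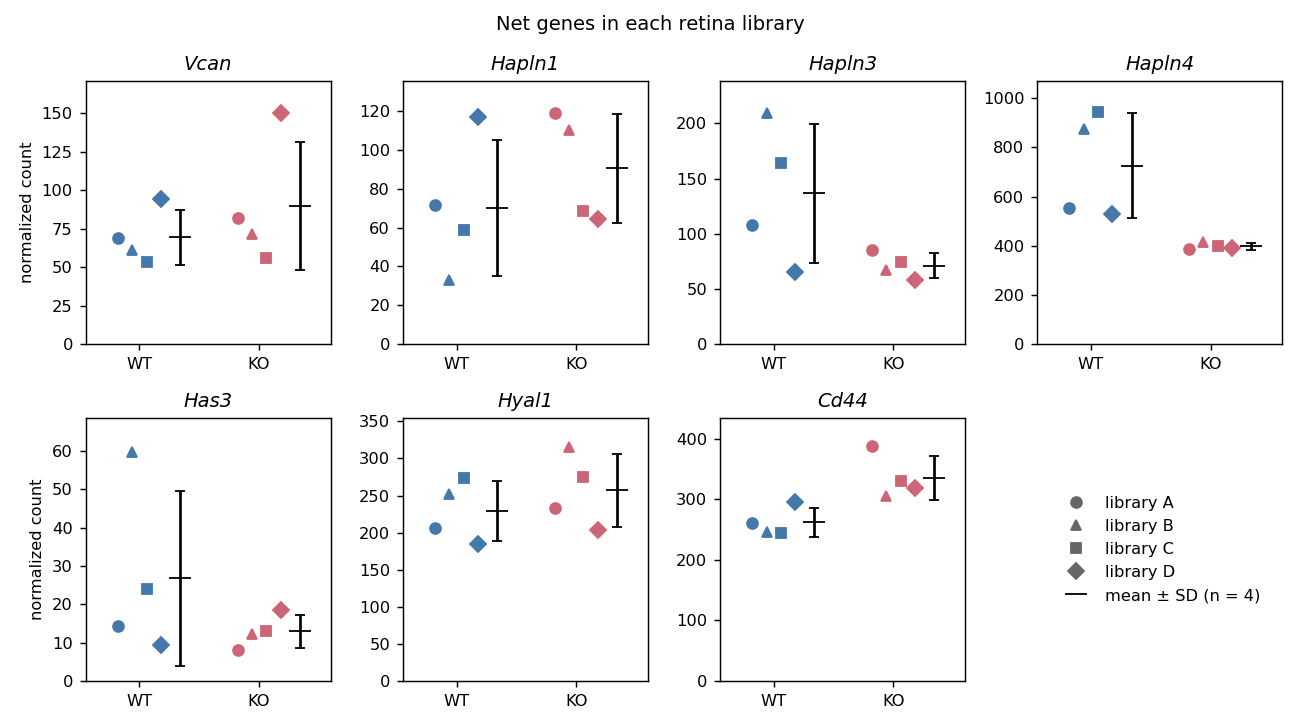
Normalized counts of the 7 measured genes in each retina library, with WT in blue and quadruple KO in red, the letter of the library given by the symbol, and the mean ± SD (n = 4) in black. The quadruple KO libraries of Hapln4 lie between 386 and 415, all below the WT libraries, and those of Cd44 between 306 and 387, all above the WT libraries, whereas the genotypes overlap for the other 5 genes.

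Vcan was the only lectican measured that was not targeted, and its level did not pass the test. Versican is the large lectican of developing tissue, vessel walls and loose connective tissue. In WT A to D it had 69.2, 61.2, 53.1 and 94.5 normalized counts, and in quadruple KO A to D 82.2, 71.3, 56.0 and 150. The highest value was that of quadruple KO D, and the other 3 quadruple KO libraries lay within the range of WT. The log2 fold change was 0.30 (standard error 0.30, 95% confidence interval -0.38 to 0.98, limma adjusted p = 0.556), so that on the linear scale the interval reached from 0.768 to 1.97 times the WT level. Without quadruple KO D the log2 fold change was 0.022, and with WT A and WT D only it was 0.051.

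Set beside the targeted lecticans, Vcan was the smallest part of the 3 lecticans measured in WT. To compare genes of different length, normalized counts were divided by the kilobases of merged exons. On this scale Ncan had 68.8 ± 9.40, Bcan 30.0 ± 6.37 and Vcan 4.20 ± 1.08 in WT (SD, n = 4), which gave Vcan 2.81% to 6.67% of the sum of the 3 genes. In the quadruple KO the sum was 7.23 ± 2.49 per kilobase, compared with 103 ± 13.8 in WT, and Vcan made up 65.2% to 85.9% of it. This share follows from the loss of the Ncan and Bcan transcripts. Per kilobase, the mean level of Vcan itself was 4.20 in WT and 5.44 in the quadruple KO. Without division by length, its mean differed by 20.4 normalized counts, which was 2.97% of the mean count that Ncan had in WT.

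**Figure D3:**
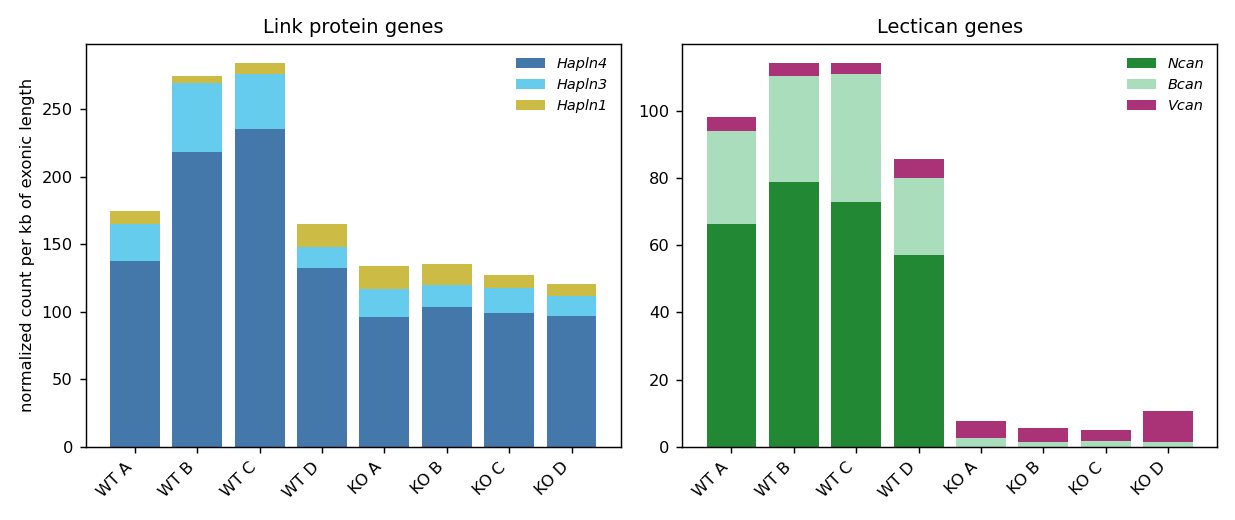
Stacked normalized counts per kb of exonic length in each library, for the link protein genes (left) and the lectican genes (right) that were measured. Hapln4 makes up 71.9% to 82.9% of the link protein sum in every library, and the lectican sum lies between 85.6 and 114 in WT and between 5.05 and 10.6 in the quadruple KO, where the remainder is mainly Vcan.

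Hapln4, also named brain link protein 2, was the most abundant of the 3 link proteins and had the lowest unadjusted p of the 7 genes. This link protein is known from nets in the brainstem and cerebellum. Its normalized counts were 553, 874, 944 and 530 in WT A to D and 386, 415, 398 and 389 in quadruple KO A to D. Every quadruple KO library lay below every WT library, and the quadruple KO libraries lay close together (coefficient of variation 3.32%, compared with 29.6% in WT). The mean in the quadruple KO was 54.7% of that in WT, and the log2 fold change was -0.82 (standard error 0.19), which gave a 95% confidence interval of 0.422 to 0.760 times the WT level. By the fit over all genes it ranked 125th by p and was not called (limma adjusted p = 0.241). The authors, with another method (DESeq2) on the same libraries, called more genes in all and reported Hapln4 as significantly downregulated. The two-sided exact permutation test gave an unadjusted p of 0.0286, the smallest that 4 against 4 libraries allow. In bulk tissue, fewer cells of a type and less RNA per cell cannot be told apart.

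The size of the Hapln4 difference depended on the WT libraries. WT B and WT C had a mean of 909 normalized counts and WT A and WT D one of 541, so that the quadruple KO mean was 73.3% of the latter. With WT A and WT D only, the log2 fold change was -0.45 (95% confidence interval -0.61 to -0.28) instead of -0.82, and Hapln4 was called (limma adjusted p = 0.0425; 0.527% of genes were called in this fit, 0.215% as lower). When limma estimated a weight for each library, WT B and WT C received weights of 0.164 and 0.156, compared with 2.86 for WT A and 0.96 for WT D. In this fit Hapln4 was also called, with a log2 fold change of -0.52 (limma adjusted p = 0.0346). Its WT side thus rested mainly on WT A. Over all 19 alternatives the log2 fold change lay between -0.95 and -0.45 and the adjusted p between 0.0346 and 0.527.

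Hapln4 also differs from the other measured genes in lying beside a targeted gene. In WT the number of Hapln4 counts per Ncan count was 0.832, 1.11, 1.29 and 0.931 in libraries A to D, whereas Ncan was at most 0.853 normalized counts in the quadruple KO. The genotype difference of Hapln4 was 328 normalized counts, equal to 47.7% of the mean Ncan count in WT. That Ncan count covers the whole gene, whereas only 1255 exonic bases are shared with Hapln4, none of them in the canonical Ncan transcript. The part of antisense Ncan reads in this difference was not tested. All 4 quadruple KO libraries carry the targeted Ncan allele next to Hapln4, so a difference that goes with this allele and one that goes with the missing proteins cannot be told apart. Of the 69 tested genes within 1 Mb of Hapln4, 1 was called, which was Ncan, and their median log2 fold change was -0.08. Of the retinal ganglion cell markers, which Nefl led in level, 3 of 5 genes were lower at an unadjusted limma p under 0.05 and 0 were called. The 5 genes did not share a direction, with log2 fold changes between -0.43 and 0.29. Nefl alone had a mean of 16521 (WT) and 14094 (quadruple KO) normalized counts and thus dominated the sum of these markers. Their summed counts were 23913 to 26424 in WT and 19857 to 23414 in the quadruple KO, and the part of these cells in the Hapln4 level was not tested.

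Hapln3, the link protein gene that lies end to end with Acan, is expressed in many tissues outside the brain. The gene had 108, 209, 164 and 65.3 normalized counts in WT A to D and 84.9, 67.1, 74.3 and 57.8 in quadruple KO A to D. WT B and WT C were the highest libraries, whereas WT D lay within the range of the quadruple KO. The log2 fold change was -0.82 (standard error 0.33, 95% confidence interval -1.55 to -0.09, limma adjusted p = 0.301), and the two-sided exact permutation test gave an unadjusted p of 0.114. With WT A and WT D only it was -0.26 (95% confidence interval -0.79 to 0.28, limma adjusted p = 0.692). Its mean point estimate was thus close to that of Hapln4, but it rested on WT B and WT C to a larger extent.

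Hapln1, the cartilage link protein, which is also the main link protein of cortical nets, showed the opposite point estimate. Its normalized counts were 71.7, 33.2, 58.7 and 117 in WT A to D and 119, 110, 68.7 and 64.5 in quadruple KO A to D. WT B was the lowest library, and WT D lay among the highest quadruple KO libraries. The log2 fold change was 0.45 (standard error 0.37, 95% confidence interval -0.38 to 1.28, limma adjusted p = 0.469), with an unadjusted p of 0.429 by the two-sided exact permutation test. With WT A and WT D only, the sign turned and the value was -0.068 (95% confidence interval -0.75 to 0.61). A difference of Hapln1 between the genotypes was therefore not detectable, although the interval of the main fit spans 0.770 to 2.42 times the WT level. Its neighbour Vcan had a point estimate of the same sign in the main fit, and Pearson's r between both genes was 0.29 over the 8 libraries.

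Taken as a sum per kilobase, the 3 link proteins had 175, 274, 284 and 165 normalized counts per kb in WT A to D and 134, 136, 127 and 120 in quadruple KO A to D. The genotypes did not overlap in this sum, which Hapln4 dominated. Hapln4 contributed 80.4% ± 1.74 (WT) and 76.8% ± 3.67 (quadruple KO), Hapln3 14.5% ± 3.71 and 13.5% ± 1.81, and Hapln1 5.08% ± 3.67 and 9.74% ± 2.57 (SD, n = 4 each). The shares of each link protein overlapped between the genotypes, with Hapln1 at 1.69% to 9.95% in WT and 7.51% to 12.5% in the quadruple KO. No test was made on these sums and shares.

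Of the genes that make and degrade hyaluronan, Has3 and Hyal1 were measured. Has3 encodes a hyaluronan synthase of the plasma membrane and was near the lower end of detection. WT A to D had 14.2, 59.6, 24.0 and 9.25 normalized counts of Has3, compared with 8.18, 12.2, 13.0 and 18.6 in quadruple KO A to D. A single library, WT B, had the highest count, and WT C also lay above the quadruple KO, whereas WT A and WT D lay within its range. The log2 fold change was -0.71 (standard error 0.52, 95% confidence interval -1.88 to 0.46, limma adjusted p = 0.426). Without WT B it was -0.22, and with WT A and WT D only the sign turned, with a value of 0.11 (95% confidence interval -0.71 to 0.93).

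Hyal1, a lysosomal hyaluronidase, had overlapping counts in the genotypes. Its normalized counts were 206, 252, 273 and 185 in WT A to D and 234, 316, 276 and 203 in quadruple KO A to D. The lowest library was WT D and the highest quadruple KO B, and quadruple KO A and D lay within the range of the WT libraries. The log2 fold change was 0.16 (standard error 0.17, 95% confidence interval -0.22 to 0.55, limma adjusted p = 0.573), and the interval therefore reached from 0.856 to 1.47 times the WT level. With WT A and WT D only, the log2 fold change was 0.38 (95% confidence interval -0.01 to 0.76, limma adjusted p = 0.437).

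Cd44, the main hyaluronan receptor of the cell surface, which in the retina is known from Mueller glia, was the only gene of the 7 with higher counts in every quadruple KO library than in any WT library. Its normalized counts were 261, 246, 244 and 295 in WT A to D and 387, 306, 329 and 318 in quadruple KO A to D. WT D and quadruple KO B were the libraries closest to each other across the genotypes. The mean in the quadruple KO was 128% of that in WT, and the log2 fold change was 0.36 (standard error 0.11, 95% confidence interval 0.11 to 0.61, limma adjusted p = 0.301). The two-sided exact permutation test gave an unadjusted p of 0.0286, the smallest possible. The authors named Cd44 among matrix genes dysregulated at a raw p under 0.05 (DESeq2), without giving its direction. Cd44 depended less on WT B and WT C than the link proteins did, with means of 245 normalized counts in these and 278 in WT A and WT D. With WT A and WT D only, the log2 fold change was 0.27 (95% confidence interval 0.00 to 0.53, limma adjusted p = 0.425), and the genotypes did not overlap.

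Markers of the cells that can carry Cd44 were set beside it. Of the 7 Mueller glia markers 0 were called, 1 was lower and 1 higher at an unadjusted limma p under 0.05, and their summed counts were 139824 to 192896 in WT and 140368 to 154463 in the quadruple KO. Glul, glutamine synthetase, was the most abundant of them. With a mean of 112093 (WT) and 85759 (quadruple KO) normalized counts, Glul dominated this sum. The Mueller glia markers did not share a direction, with log2 fold changes between -0.36 (Glul) and 0.34 and a median of 0.15. Of the 4 astrocyte markers, led by Gfap, 0 were called and 3 were lower at an unadjusted p under 0.05, with sums of 1259 to 1462 in WT and 851 to 1437 in the quadruple KO. The 5 microglia markers, of which 4 were tested, summed to 272 to 345 (WT) and 331 to 361 (quadruple KO), with 0 called. Cx3cr1, a microglial chemokine receptor and the most abundant of them, was higher at an unadjusted limma p under 0.05. The tested microglia markers did not share a direction, with log2 fold changes between -0.38 and 0.63 and a median of 0.11. The part of these cell types in the Cd44 level was not tested.

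**Figure D4:**
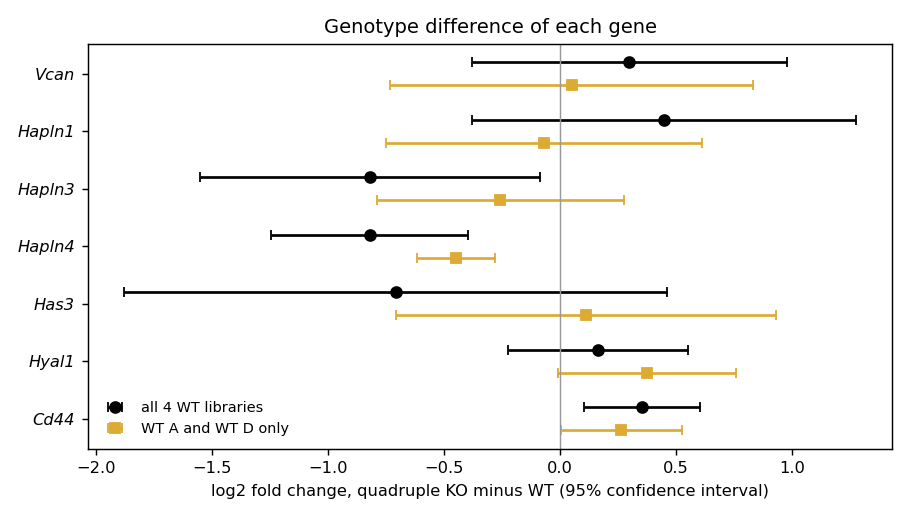
Log2 fold change of each measured gene (quadruple KO minus WT) with its 95% confidence interval from limma, for all 4 WT libraries (black circles) and for WT A and WT D only (yellow squares). Hapln4 is -0.82 and -0.45, Cd44 0.36 and 0.27, and the points of Hapln1 and Has3 change sign between both fits.

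The split of the WT libraries ran through all 7 genes. For 7 of 7 genes both WT B and WT C lay on one side of WT A and WT D, above for Hapln3, Hapln4, Has3 and Hyal1 and below for Vcan, Hapln1 and Cd44. The same held for 70.8% of all genes tested. On the log2 scale, the largest difference of WT B and WT C from WT A and WT D among the 7 genes was that of Has3 (1.64) and the smallest that of Cd44 (-0.18). The spread between libraries on the log2 scale was larger in WT than in the quadruple KO for 4 of the 7 genes, compared with 83.9% of all genes tested. For Hapln4 the SD in WT was 9.17 times that in the quadruple KO.

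Ordered by level per kilobase, the genes formed the same sequence in both genotypes. In WT, Hapln4 had 181 ± 53.5 normalized counts per kb, followed by Hyal1 with 60.6 ± 10.7, Cd44 with 38.6 ± 3.51, Hapln3 with 33.7 ± 15.5, Hapln1 with 9.84 ± 4.92, Vcan with 4.20 ± 1.08 and Has3 with 4.19 ± 3.56 (SD, n = 4). In the quadruple KO the values were 99.0 ± 3.29, 68.1 ± 13.0, 49.5 ± 5.33, 17.5 ± 2.82, 12.7 ± 3.92, 5.44 ± 2.52 and 2.03 ± 0.673 in the same order. In WT the libraries of Hapln4, Hyal1 and Cd44 did not overlap from one gene to the next, whereas those of each later neighbour pair did. In the quadruple KO, Hapln4 lay above Hyal1, Cd44 above Hapln3 and Vcan above Has3 without overlap, and the other neighbours overlapped. Among all genes tested, Hapln4 stood at the 60.2th percentile by its mean level per kilobase, Hyal1 at the 42.4th, Cd44 at the 35.6th, Hapln3 at the 27.4th, Hapln1 at the 15.5th, Vcan at the 5.97th and Has3 at the 2.86th. Apart from Hapln4, these genes were thus in the lower part of the retinal transcriptome.

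For each gene, the 3 genes with the most similar course over the 8 libraries were determined by Pearson's r on the log2 scale, as a description. The libraries share depth and the split of WT described above, and no p is given. Hapln4 was most like Gm5814, Myt1l and Fars2 (each r = 0.99). For Hapln3 these were Syt7, a synaptotagmin, Srcin1 and Apc2 (each r = 0.99), and Hapln3 and Hapln4 had an r of 0.90 with each other. Vcan was most like Fmod (r = 0.96), which encodes fibromodulin, a small proteoglycan of connective tissue, followed by Gch1 (r = 0.94) and Nemf (r = 0.91). Fmod was highly variable in the quadruple KO, with 84.4 ± 57.7 normalized counts compared with 53.4 ± 20.3 in WT (SD, n = 4 each). The 7 fibroblast and sclera markers analysed, led by Pdgfra, had summed counts of 728 to 990 in WT and 585 to 787 in the quadruple KO, with 0 called, and their part in the Vcan level was not tested. Hapln1 was most like Gnat3, Ube2f and Itih5 (each r = 0.98). Itih5 encodes a heavy chain of the inter-alpha-trypsin inhibitor family, which includes proteins that bind to hyaluronan. Has3 was most like Gm16867, Smarcd1 and Asap1 (each r = 0.98), Hyal1 like Gstt2, Poc1b and Gm48362 (each r = 0.92), and Cd44 like Abi1 (r = 0.98), Nr2c1 (r = 0.97) and Alpk2 (r = 0.96).

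Other genes of hyaluronan and of net assembly were described by 4 lists. Of 61 listed genes 47 were tested, and 0 were called by limma. At an unadjusted p under 0.05, 4 were lower and 3 higher in the quadruple KO, beside the 7.28% and 9.29% of all genes named above. Among the 10 tested genes of hyaluronan synthesis and turnover, none had an unadjusted p under 0.05, and the median log2 fold change was 0.00. The lowest p belonged to Hexa (log2 fold change 0.16, adjusted p = 0.303), a subunit of a lysosomal hexosaminidase, Ugp2 (0.16, adjusted p = 0.307), which makes the sugar nucleotide UDP-glucose, and the synthase Has1 (-0.76, adjusted p = 0.314). Has1 was of a similar count to Has3, with 14.7 ± 6.79 (WT) and 7.81 ± 2.33 (quadruple KO) normalized counts (SD, n = 4).

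Among the 11 tested hyaluronan receptors and binding proteins the median was 0.12. Impg2, a proteoglycan of the matrix between the photoreceptors that binds hyaluronan, had 24964 ± 2716 (WT) and 30443 ± 1514 (quadruple KO) normalized counts without overlap (SD, n = 4; log2 fold change 0.29, limma adjusted p = 0.301). Of the 4 rod markers 0 were called, with log2 fold changes of 0.28 (Gnat1), 0.21 (Sag), -0.08 (Pde6b) and -0.14 (Nrl) and a median of 0.07. The part of rods in the Impg2 level was not tested. Stab1, a scavenger receptor of endothelium and macrophages that takes up hyaluronan, had 103 ± 55.0 and 35.6 ± 20.4 normalized counts (log2 fold change -1.46, limma adjusted p = 0.301), and Ptx3, a pentraxin of hyaluronan-rich matrix, had a log2 fold change of -0.40 (limma adjusted p = 0.313).

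Among the 14 tested lectican partners in nets, the median was -0.11. Otx2, a homeobox transcription factor that nets of the visual cortex take up and that the retina expresses itself, had 3654 ± 1065 and 5352 ± 216 normalized counts (log2 fold change 0.60, limma adjusted p = 0.301). Its values in WT B and WT C were 2672 and 2815, compared with 4368 and 4761 in WT A and WT D. Ptprs, a receptor phosphatase that binds chondroitin sulfate, had a log2 fold change of -0.24 (limma adjusted p = 0.301) with no overlap between the genotypes. Cspg5, the proteoglycan neuroglycan C, had one of -0.57 (limma adjusted p = 0.301) and overlapped. Its counts also split within WT, with 6516 and 6557 in WT B and WT C and 3879 and 3340 in WT A and WT D. In the quadruple KO they lay between 3087 and 3421. Among the 12 tested proteases that cut lecticans and their inhibitors, the median was 0.04. Timp2, an inhibitor of metalloproteinases, was the only one with an unadjusted limma p under 0.05 (log2 fold change 0.46, adjusted p = 0.301). Adamts5, an aggrecanase, had a log2 fold change of 0.31 (limma adjusted p = 0.310), and Adamts15, also an aggrecanase, one of -0.29 (limma adjusted p = 0.312).

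**Figure D5:**
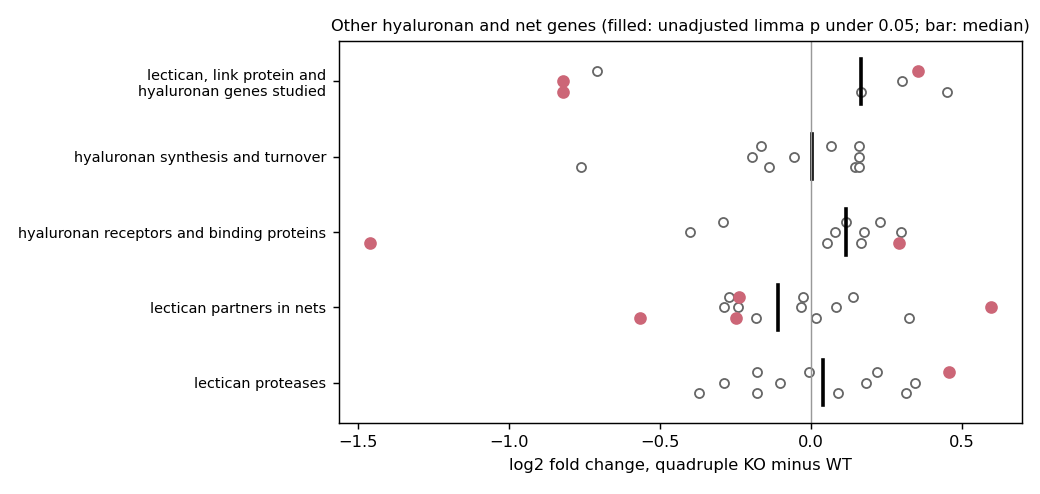
Log2 fold changes (quadruple KO minus WT) of the 7 measured genes and of the 47 tested genes in 4 lists of hyaluronan and net genes. Each point is a gene, filled where the unadjusted limma p was under 0.05, and the black bar is the median of the list, which lies between -0.11 and 0.16 in every row.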

How the data were processed

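Reads were trimmed by the authors (Trim Galore 0.6.7), aligned to GRCm39 (STAR 2.7.9a) and turned into estimated counts per gene (Salmon 1.5.2). They deposited estimated counts normalized by DESeq2 1.32.0 (R 4.1.1), 1 column per library, beside their own fold changes and p-values, which were not used. Libraries were grouped by the genotype in the labels. The depth was estimated from the step between low values, of which 45.8% to 68.0% per library were whole multiples within 0.1, so that reads could not be recovered and count models were not used. Intervals cover the spread between libraries.

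Log2(normalized count + 1) was tested with limma 3.58.1 in R 4.3.3 (eBayes with trend, no covariates) in 17636 genes whose mean was at least 10. This log2 scale understates changes of low genes. Benjamini-Hochberg adjustment covered all genes tested. The steps were tested on simulated data. Exact permutation tests on normalized counts and all summaries used Python 3.11.15 with scipy 1.17.1. Exonic lengths, positions and sequences came from the GENCODE annotation and genome of GRCm39.

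The genes and lists were chosen with earlier results of these data known. Named in the text are the 10 chosen genes, the 4 targeted genes, up to 3 genes of each list with the lowest p, the 3 genes most like each chosen gene, and the most abundant markers. The 4 rod markers were named after their values were seen, and 1 listed marker is not reported here. Alternatives were other scalings, filters, pseudocounts and eBayes settings, array weights, a replicate block by letter, the longest transcript as length, and each library left out in turn. Horizontal cell, oligodendrocyte, pigment epithelium, endothelial and lens markers were summed too.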

Additional observations from a re-analysis of the deposited data

How the results depend on the processing

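All 7 genes were uncalled under every alternative chosen at the start, except Hapln4 with array weights (log2 fold change -0.52, limma adjusted p = 0.0346). With WT A and WT D only, which was added once the values were known, Hapln4 was called as well (-0.45), and the signs of Hapln1 (-0.068) and Has3 (0.11) turned. The number of genes called over the table was 143 with array weights (72 lower, 71 higher) and 51 with the letter as a replicate block (17 lower, 34 higher), compared with 77. The deviations of libraries with the same letter had correlations between -0.11 and 0.10, so the letters were not treated as pairs, and no gene of the 7 was called with the replicate block. With each library left out in turn, the number called lay between 56 and 89, and the log2 fold changes lay between 0.022 and 0.49 (Vcan), 0.14 and 0.74 (Hapln1), -1.13 and -0.57 (Hapln3), -0.95 and -0.68 (Hapln4), -1.08 and -0.22 (Has3), 0.059 and 0.27 (Hyal1), and 0.28 and 0.42 (Cd44), with 0 called. With the longest transcript as length, the WT levels per kb of Vcan, Hyal1 and Cd44 were 5.51, 75.9 and 46.2, and the order of the 7 genes was kept. A minimum mean of 100 left Vcan, Hapln1 and Has3 untested. Depth limits Has3 most, since 1 read was worth 0.710 to 1.79 normalized counts.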

Other observations

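Markers of cells from outside the neural retina varied widely between libraries of one genotype. The 4 lens markers analysed summed to 64.4 to 1659 normalized counts in WT and 31.8 to 1344 in the quadruple KO, with 0 called, and Cryaa, a lens crystallin, was the most abundant of them by mean. The 8 markers of the retinal pigment epithelium summed to 2714, 4078, 3974 and 7480 in WT A to D and to 2869 to 4377 in the quadruple KO. Ttr, transthyretin, was the most abundant of them. None was called. In the quadruple KO, 1 of the 8 was lower without overlap between the genotypes (limma adjusted p = 0.0790), beside 3.58% of all genes tested. The 8 markers did not share a direction, with log2 fold changes between -0.71 and 0.54 and a median of -0.14. Markers of oligodendrocytes (5, led by Mbp, a myelin protein) summed to 1578 to 1841 and 1512 to 2179, those of endothelial cells and pericytes (6, led by Rgs5) to 1776 to 2351 and 1659 to 2314, and those of horizontal cells (3, led by Calb1) to 1927 to 2397 and 2057 to 2205, with 0 called in each list. Rpe65, Lum and Mog were not analysed here. The 7 genes of the matrix described above were not tested for a relation to these sums.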
